A study of Mus musculus with 21 samples.

Results

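Irisin given on its own to healthy mice was compared with vehicle in the midbrain by bulk RNA sequencing. The comparison takes 3 mice of the irisin alone group, which received vehicle for 5 days and then irisin for 5 days, and 3 control mice, which received vehicle for 10 days. These are 6 of the 21 mice of the series, chosen by their labels, and every expressed gene was described: 21922 of the 55385 listed genes passed the filter on low counts (at least about 10 reads in as many mice as a group holds). All mice were male C57BL/6 animals of 6 weeks, and no substrain or litter was stated in the labels. Irisin was injected intraperitoneally at 200 μg/kg per day, and the vehicle was ddH2O. The same experiment held 3 MPTP mice (MPTP, 30 mg/kg per day for 5 days, then vehicle) and 3 mice that received MPTP and then irisin on the same schedule. The other 9 mice belong to a separately quantified experiment in which irisin came before MPTP. It asks what irisin does to midbrain transcripts without the dopaminergic neurotoxin MPTP.

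Irisin is the part of FNDC5, a membrane protein of muscle and brain, that is cut off and released into the circulation with exercise. Integrins that contain the αV chain, the product of Itgav, serve as its receptors in bone and fat cells, and focal adhesion kinase, Akt and ERK act downstream of them. In fat, irisin is known for switching on thermogenic genes. The midbrain holds the dopaminergic neurons of the substantia nigra, which are lost in Parkinson's disease, next to GABAergic and glutamatergic neurons, glia and vessels.

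Library totals were 48843585 to 55402572 counts in the control mice and 52869040 to 59018042 counts in the irisin alone mice, so depth was close in both groups. Levels are given in CPM, counts relative to library size, after scaling by TMM factors of 0.984 to 1.01 in these 6 libraries. The tissue was checked against its markers. Th, which encodes the rate-limiting enzyme of dopamine synthesis, lay at 50.9 to 63.3 CPM in the control mice and 49.4 to 56.8 CPM in the irisin alone mice. No pair of mice within a group agreed within sampling noise. The labels do not say whether mice of a group shared a cage or an extraction, so p-values measure only the spread between mice within groups. That spread was estimated over all 12 mice of the experiment, MPTP and MPTP then irisin mice included.

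Few genes passed the test. Between irisin alone and control, 24 genes had an adjusted p under 0.05 in edgeR (quasi-likelihood F test, Benjamini-Hochberg adjusted), 0.109% of the 21922 tested. Of these, 18 were higher with irisin (0.0821% of tested genes) and 6 were lower (0.0274%). Without irisin alone replicate 2 the count was 15. At an unadjusted p under 0.05 there were 1967 genes (8.97%), of which 993 were higher (4.53%) and 974 lower (4.44%). The median log2 fold change over all tested genes was -0.0023, and the median absolute log2 fold change was 0.17. Of all tested genes, 63.4% had a 95% interval that lay within a 2-fold change in either direction. Of the 16059 genes with a mean of at least 1 CPM, 85.2% had one within 2-fold, and 63.9% had one within 1.5-fold.

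**Figure D1:**
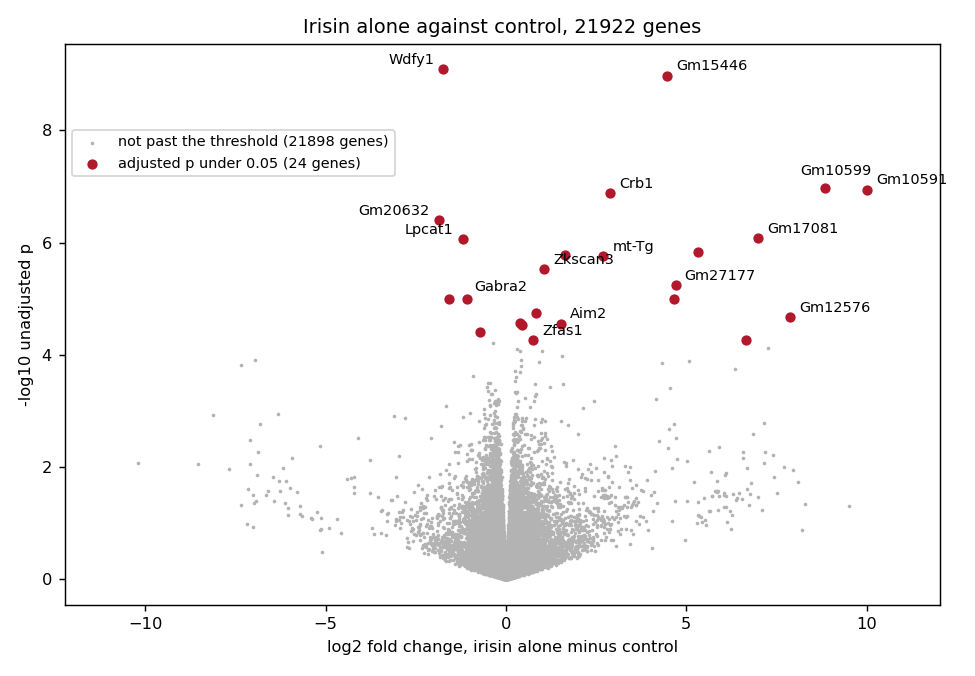
Each point is 1 of 21922 genes, with the log2 fold change of irisin alone minus control on the x axis and -log10 of the unadjusted p on the y axis. The 24 red points passed the adjusted threshold, and 18 of them lie on the right, many at fold changes that rest on control counts near 0.

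The 24 genes were a mixed group. Of these, 12 were protein coding, 6 were pseudogenes, 5 were long non-coding RNAs and 1 was a mitochondrial tRNA, whereas protein-coding genes made up 74.6% of the genes tested and pseudogenes 9.18%. In 10 of the 24 the mean over the 6 mice was under 5 CPM. In all 24 genes the 3 irisin alone mice lay above or below all 3 control mice, as they did in 15.1% of all tested genes (7.43% higher, 7.68% lower). Protein-coding members with a known role included Wdfy1, whose product binds endosomal membranes and takes part in Toll-like receptor signalling, and Gabra2, which encodes the α2 subunit of the GABA-A receptor. Crb1, a polarity gene of the retina, Lpcat1, an acyltransferase of phosphatidylcholine synthesis, and Aim2, a sensor of cytosolic DNA, were also among them.

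The control mice, rather than the irisin alone mice, stood apart in most of these genes. In 22 of the 24, the 3 control mice lay outside the range of the other 9 mice of the experiment, including the MPTP mice, which never received irisin. In 18 of these 22 the control mice were lowest, and in 4 they were highest. The irisin alone mice lay outside the other 9 mice in 4 of the 24 genes, namely Gm15446, Gm20632, Snrpd1 and Enkd1. The same held across the transcriptome. The control mice lay outside the other 9 in 712 of the 21922 genes (3.25%), the irisin alone mice in 215 (0.981%), the MPTP mice in 229 (1.04%) and the MPTP then irisin mice in 171 (0.78%). Among the 1967 genes past that unadjusted level, the control mice stood apart in 509 and the irisin alone mice in 131. A difference between irisin alone and control in such genes cannot be told apart from a difference of these 3 control mice from every other mouse of the experiment.

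**Figure D2:**
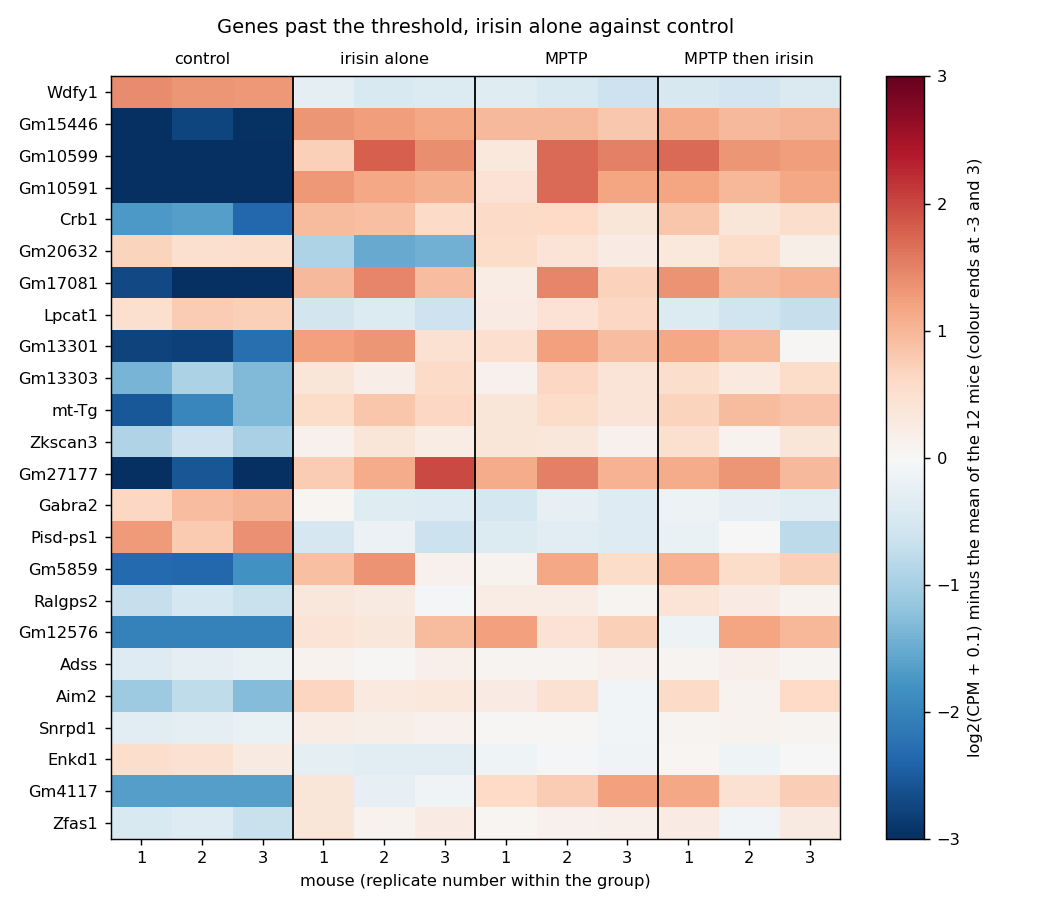
Rows are the 24 genes that passed the threshold, ordered by p, and columns are the 12 mice of the experiment in 4 groups; colour is log2(CPM + 0.1) minus the mean of the 12 mice. In 22 rows the 3 control columns stand outside the other 9, while Lpcat1 separates both irisin groups and Gm20632 separates the irisin alone mice.

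**Figure D3:**
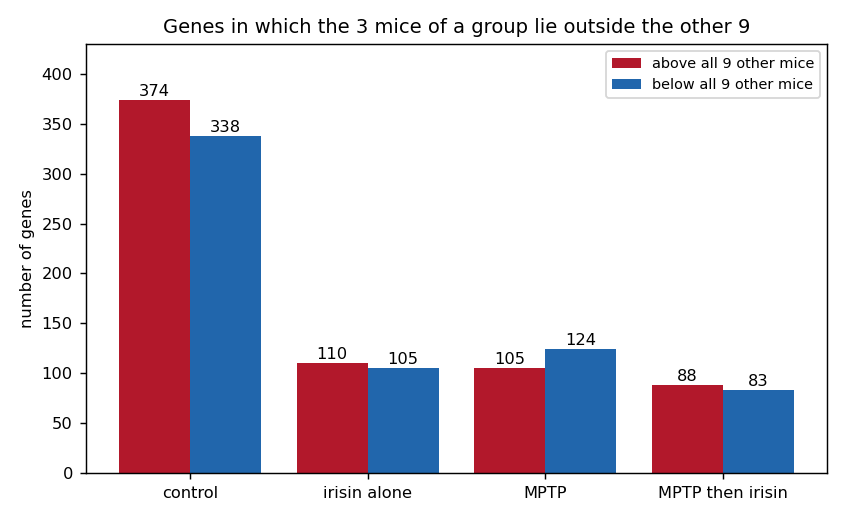
Bars count, for each group of the experiment, the genes in which its 3 mice lie above (red) or below (blue) all 9 other mice. The control mice have 374 and 338 such genes, and no other group exceeds 124 in either direction.

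Wdfy1 showed the smallest p. It lay at 79.7, 74.2 and 73.8 CPM in the control mice and at 24.7, 21.5 and 22.3 CPM in the irisin alone mice. The MPTP and MPTP then irisin mice lay at 19.2 to 23.2 CPM, so the high level was that of the control mice. Its log2 fold change was -1.73 ± 0.09 (SE, n = 3 mice per group, edgeR adjusted p = 1.17e-05), and the gene spans chr1:79702262-79776143 on the minus strand of GRCm38. Crb1 (chr1:139197056-139377077, minus strand) lay at 0.642, 0.689 and 0.385 CPM in the control mice and at 4.7, 4.49 and 3.57 CPM in the irisin alone mice. The other 6 mice lay at 3.08 to 4.29 CPM, again on the side of the irisin alone mice. Its log2 fold change was 2.89 ± 0.24 (edgeR adjusted p = 0.00058).

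Wdfy1 and Crb1 are both on a list of 9 genes known to vary between C57BL/6 substrains. They were its members past the adjusted threshold, 2 of 9, beside 0.109% of all tested genes. The list was chosen with earlier results of these data known, so nothing is read from this share. At an unadjusted p under 0.05, 3 members were higher and 1 was lower, and the list's median log2 fold change was 0.03. Entpd4, which encodes a nucleoside diphosphatase, lay at 42.7, 32.6 and 45 CPM in the control mice and at 57, 60.7 and 90.9 CPM in the irisin alone mice (log2 fold change 0.79, edgeR adjusted p = 0.30). In Entpd4, too, the control mice lay below all 9 other mice. Nnt, the mitochondrial transhydrogenase gene, did not follow the groups. It lay at 4.47 CPM in irisin alone replicate 1 and at 42.8 and 43.1 CPM in the other two irisin alone mice, against 42.6 to 50.6 CPM in the control mice. Among the other 6 mice it was low in 1, at 6.08 CPM in MPTP then irisin replicate 2, so low levels occurred in single mice of both irisin groups. Cyfip2 and Ide had log2 fold changes of 0.03 and -0.04, with overlapping groups. The part of substrain or colony in these differences was not tested, since the labels name neither.

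Gabra2 (chr5:70957597-71095849, minus strand) lay at 55, 67.6 and 72.3 CPM in the control mice and at 37.3, 27.8 and 27.4 CPM in the irisin alone mice. The other 6 mice lay at 24.7 to 31.8 CPM. The log2 fold change was -1.07 ± 0.14 (edgeR adjusted p = 0.014). The adjusted p rose to at most 0.085 when any single mouse was left out, and the call was lost without control replicates 2 or 3 or irisin alone replicates 2 or 3. Zkscan3, a zinc finger repressor of autophagy genes, lay at 37.6, 45.8 and 35.8 CPM in the control mice and at 76, 90.1 and 81.7 CPM in the irisin alone mice. Its log2 fold change was 1.06 ± 0.12 (edgeR adjusted p = 0.0055). Gm15446, a predicted protein-coding gene on chromosome 5, lay at 0.642, 1.49 and 1.28 CPM against 26.8, 25.4 and 23.8 CPM. The other 6 mice lay at 18.7 to 23.1 CPM, so the irisin alone mice were highest of the 12 and the control mice lowest. Its log2 fold change was 4.47 ± 0.24 (edgeR adjusted p = 1.17e-05).

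A further 7 genes past the threshold had log2 fold changes of -1.59 to 1.52. Adss, which encodes an adenylosuccinate synthetase of purine synthesis, was higher by 0.39 ± 0.06 on the log2 scale, at 75.2, 79.9 and 84.7 CPM in the control mice and 100.4 to 108.4 CPM in the irisin alone mice. Snrpd1, which encodes a core protein of the spliceosome, was higher by 0.44 ± 0.06, at 30.8 to 33.9 CPM against 42.3 to 45 CPM. Ralgps2, an activator of Ral GTPases, was higher by 0.83 ± 0.12, and Aim2 by 1.52 ± 0.22, from 1.3 to 1.95 CPM up to 4.17 to 5.31 CPM. Enkd1, whose product binds microtubules, was lower by 0.73 ± 0.11, the log2 fold change being -0.73. Zfas1, a non-coding host RNA of small nucleolar RNAs, was higher by 0.75 ± 0.12, and Pisd-ps1, a pseudogene of phosphatidylserine decarboxylase, had a log2 fold change of -1.59 ± 0.21. Their edgeR adjusted p-values were 0.014 to 0.0497. These 7 calls were not stable to leaving out a mouse, with adjusted p-values of up to 0.17. Snrpd1, Enkd1 and Zfas1 lost the call without any 1 of the 6 mice, Ralgps2 without each but irisin alone replicate 3, Adss without each but control replicate 3 and Aim2 without each but control replicate 2. Pisd-ps1 lost it without control replicates 1 or 3 or irisin alone replicates 1 or 3.

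mt-Tg, the glycine tRNA of the mitochondrial genome, also passed the threshold. It lay at 0.331, 0.555 and 0.918 CPM in the control mice and at 3.59, 4.44 and 3.81 CPM in the irisin alone mice. The other 6 mice lay at 3.16 to 4.79 CPM. The log2 fold change was 2.70 ± 0.29 (edgeR adjusted p = 0.0035). The sequence is shown because the gene has 68 bases and abuts its neighbours, mt-Co3 ending at position 9390 and mt-Nd3 starting at 9459 of the mitochondrial chromosome, so that few reads can be assigned to it alone. In the GENCODE M21 transcripts on GRCm38, with no base in capitals, it reads as follows.
mt-Tg: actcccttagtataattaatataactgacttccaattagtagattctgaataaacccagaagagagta
The 2 flanking genes differed far less between the groups. mt-Co3 had a log2 fold change of -0.11 (edgeR adjusted p = 0.61) and mt-Nd3 of -0.01 (adjusted p = 0.99).

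A stretch of chromosome 4 held 6 of the 24 calls. Gm13303, Gm13301 (ENSMUSG00000096862), Gm5859, Gm17081, Gm10599 and Gm10591 lie between positions 42025429 and 42613253 (GRCm38). The region was delimited after its values were seen. It held 29 tested genes from position 41893388 to 42665763, of which 15 had an unadjusted p under 0.05 with a higher level in irisin alone mice (4.53% of all tested genes) and 0 with a lower level (4.44%), and in 12 the control mice lay outside the other 9 (3.25%). Since the region was chosen for these values, nothing is read from its counts. Ccl27b and Il11ra2, copies of a chemokine and of an interleukin receptor gene, lie within the region and did not pass (log2 fold changes 0.65 and 1.20, edgeR unadjusted p = 0.67 and 0.17).

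Gm10591 carries the coding sequence of a CCL21 chemokine, which guides dendritic cells and T cells to lymph nodes. Its GENCODE M21 transcript has 402 bases and is identical over all 402 to that of Ccl21b. It differs from the coding sequence of Ccl21a at 2 positions, A84T and T194C, counted from the start codon with the Gm10591 base first. The counted gene is listed from position 42612121 to 42613253, wider than the M21 gene at 42612195 to 42612860. Identity is therefore not shown for all of the sequence that was counted. Bases 70 to 205 of the coding sequences, from GENCODE M21 on GRCm38, show why reads of these copies are hard to tell apart; capitals mark the 2 differing positions, and the stretch of Ccl21b is that of Gm10591.
Gm10591: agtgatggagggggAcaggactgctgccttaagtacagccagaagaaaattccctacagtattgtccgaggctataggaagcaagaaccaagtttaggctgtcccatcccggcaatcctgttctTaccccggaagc
Ccl21a: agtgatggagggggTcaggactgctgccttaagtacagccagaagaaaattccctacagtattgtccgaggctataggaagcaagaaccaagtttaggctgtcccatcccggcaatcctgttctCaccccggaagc
Gm10591 had 0 counts in each control mouse and 130, 134 and 119 counts in the irisin alone mice. Against a floor of 3 counts over the 3 control mice, this was at least 117-fold higher in irisin alone mice. The sum of Gm10591, Ccl21a and Ccl21b, which does not change with how reads were split among these copies, was 3, 12 and 0 counts in the control mice and 180, 208 and 145 counts in the irisin alone mice. The sum was 134 to 269 counts in the other 6 mice, so the low level was again that of the control mice.

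Other called genes of the stretch were also near 0 or low in the control mice. Gm10599 had 1 count over the 3 control mice and 689 over the irisin alone mice, a ratio of 630 (95% exact counting interval 113 to 24922). Gm17081 had 2 and 330 counts, a ratio of 151 (41.4 to 1251). These intervals cover counting error only. Gm13303 was measured at higher counts, at 2.32, 3.2 and 2.46 CPM in the control mice and 8.06, 7.25 and 9.31 CPM in the irisin alone mice (log2 fold change 1.62 ± 0.18, edgeR adjusted p = 0.0035). The GENCODE M21 transcript named Gm13301 has 2446 bases. This is longer than the called Gm13301 gene (positions 42234014 to 42236330), so it is another model. The longest exact run that this transcript shares with Gm5859 is 448 bases, and with Gm13303 it is 277 bases. What the called model shares with them was not measured, so counts of these genes are uncertain one by one. Elsewhere, Gm12576 and Gm4117, both long non-coding RNAs, also had no count in any control mouse and were at least 26.5-fold and 11.3-fold higher in irisin alone mice. Gm27177, a long non-coding RNA on chromosome 14, had a mean of 1.26 CPM in control mice and 33.1 CPM in irisin alone mice. Gm12576 and Gm4117 lost the call without any 1 of the 6 mice (adjusted p up to 0.085 and 0.12), Gm27177 without control replicate 3 (0.059) and Gm5859 without control replicates 1 or 2 or irisin alone replicate 2 (up to 0.091).

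Lpcat1 was the gene past the threshold that was low in both irisin groups and high in both groups without irisin. It encodes lysophosphatidylcholine acyltransferase 1 and spans chr13:73467197-73516422 on the plus strand of GRCm38. It lay at 28.5, 34.8 and 33.5 CPM in the control mice and at 13.9, 15.2 and 13.2 CPM in the irisin alone mice. In the MPTP mice it lay at 24.1, 27.6 and 31.2 CPM, and in the MPTP then irisin mice at 15.2, 13.5 and 12.6 CPM. The groups with and without irisin did not overlap, and Snrpd1 sorted the 12 mice in the same way at higher levels with irisin. For Lpcat1 the log2 fold change of irisin alone against control was -1.20 ± 0.12 (edgeR adjusted p = 0.0024). The change of MPTP then irisin against MPTP, which shares no mouse with the first, was -1.01 (unadjusted p = 4.6e-06, edgeR adjusted p = 0.051), and the difference of the effects was 0.19 (adjusted p = 0.95). The call against control held with each of the 6 mice left out, with an adjusted p of at most 0.015.

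Lpcat1 did not follow irisin in the separately quantified experiment. There it lay at 28.5, 11.8 and 23.5 CPM in the control mice, at 15.6, 13.2 and 12.1 CPM in the MPTP mice and at 11.7 to 12.9 CPM in the mice given irisin before MPTP. The MPTP mice without irisin and 1 control mouse were at the low level. Levels were scaled within each experiment, so only their order within an experiment is compared. Across the transcriptome, all 6 mice that received irisin lay above or below the other 6 mice in 97 genes (0.442%). Besides Lpcat1, the genes named here with that pattern were Snrpd1 and Bcl2.

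Gm20632, a long non-coding RNA at chr3:96239393-96241819, was low in the irisin alone mice. It lay at 11.1, 9.65 and 9.97 CPM in the control mice and at 3.58, 2.38 and 2.47 CPM in the irisin alone mice, and the other 6 mice lay at 7.78 to 10.2 CPM. It was therefore apart from all 9 other mice, MPTP then irisin mice included. The log2 fold change was -1.87 ± 0.18 (edgeR adjusted p = 0.0015). In the separately quantified experiment it lay at 3.02 to 5.94 CPM, with the 3 treatment groups overlapping.

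**Figure D4:**
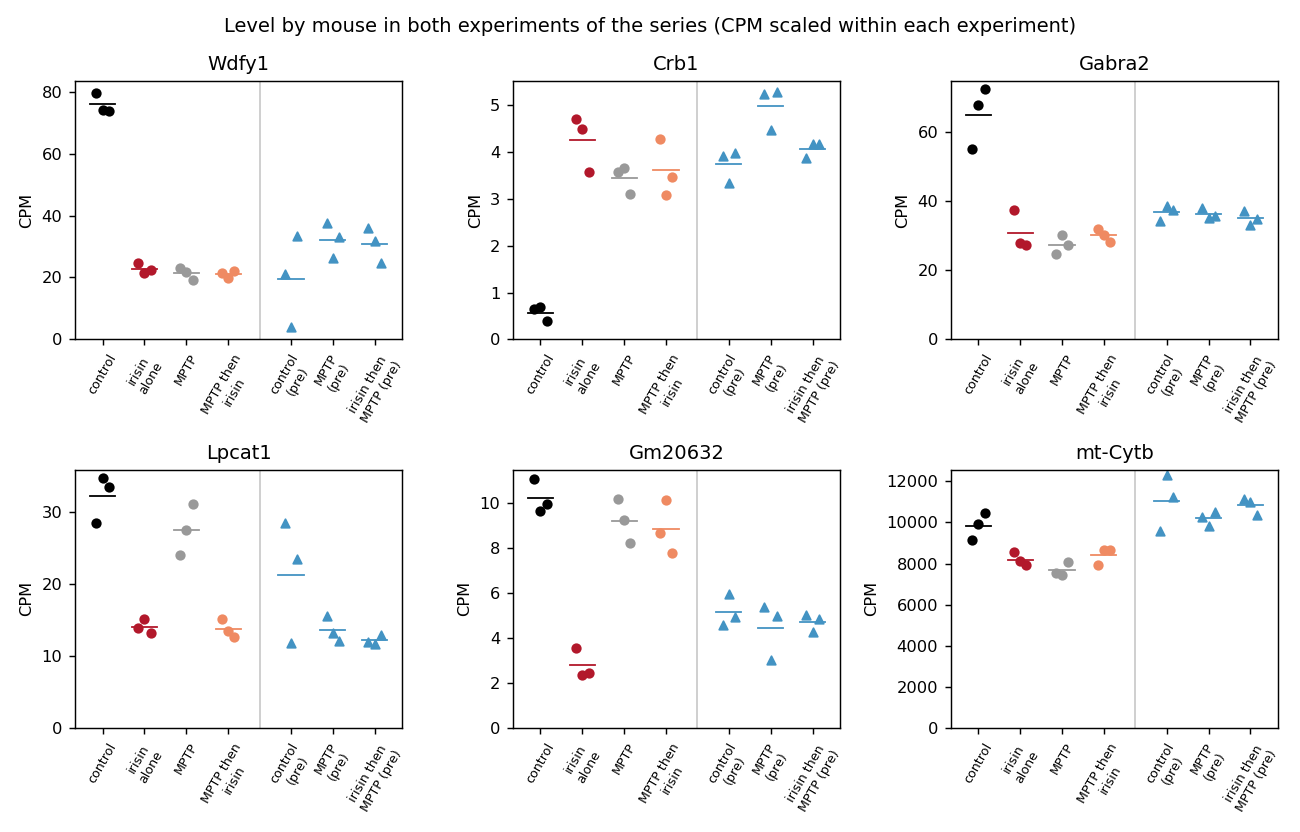
Each panel gives the CPM of 1 gene in 21 mice, circles for the 4 groups of the experiment with irisin alone and triangles for the 3 groups of the other experiment; lines are group means, and CPM was scaled within each experiment. Wdfy1, Crb1 and Gabra2 separate the 3 control mice from the other 9, Lpcat1 separates the 6 irisin mice from the other 6 on the left, and Gm20632 separates the irisin alone mice.

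The separately quantified experiment holds another set of vehicle controls for these genes, on CPM scaled within that experiment. Wdfy1 lay at 21, 3.88 and 33.4 CPM in its control mice and at 24.6 to 37.4 CPM in its other 6 mice. Over its 9 mice, Crb1 lay at 3.33 to 5.27 CPM, Gabra2 at 32.9 to 38.5 CPM and Gm15446 at 36.6 to 45.8 CPM. In each of these 4 genes its control mice overlapped its other mice, which did not hold for every called gene. In Zkscan3 its control mice lay at 56.7 to 67.2 CPM and its other 6 mice at 77.2 to 142 CPM. For Ralgps2 the values were 25.1 to 45.04 and 45.09 to 51.2 CPM, and for Gm17081 they were 0.648 to 0.664 and 0.82 to 1.16 CPM. In these genes its control mice were lowest, as in the experiment with irisin alone.

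The effect of irisin was then compared between mice with and without MPTP. The difference of the effects, (MPTP then irisin minus MPTP) minus (irisin alone minus control), had an adjusted p under 0.05 in 9 genes, 0.0411% of those tested (edgeR). All but Larp1 were among the 24 genes above, and in those 8 the effect without MPTP was the large one. For Wdfy1 the log2 fold change was -1.73 without MPTP and -0.01 with it, and for Crb1 it was 2.89 and 0.07. For Larp1, which encodes an RNA-binding protein that controls translation of ribosomal protein mRNAs, it was 0.06 without MPTP and 1.14 with it. Larp1 lay at 152 to 176 CPM in the control, irisin alone and MPTP then irisin mice and at 69.6, 76.1 and 77.6 CPM in the MPTP mice. The low group was thus the MPTP mice, and irisin alone and control overlapped.

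No member of the 28 other gene lists passed the adjusted threshold, so what follows gives levels and unadjusted p-values, to be read against the 8.97% of all tested genes with an unadjusted p under 0.05. Of the 18 tested genes for the irisin precursor, integrin receptors and adhesion proteins, 1 had an unadjusted p under 0.05 and was lower (Zyx, log2 fold change -0.45, unadjusted p = 0.040), and the median was -0.04. Fndc5 itself lay at 185, 169 and 185 CPM in the control mice and 160, 161 and 170 CPM in the irisin alone mice (log2 fold change -0.13, edgeR adjusted p = 0.57). Itgav lay at 55.9, 13.9 and 57.5 CPM in the control mice and at 67.1, 66.8 and 62.5 CPM in the irisin alone mice, so its log2 fold change of 0.63 was 0.21 without control replicate 2. Itgb5, its partner chain, had a log2 fold change of -0.05, and Ptk2, which encodes focal adhesion kinase, of -0.06. Itgb6 did not pass the filter on low counts.

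Among 21 genes of the PI3K-Akt and ERK kinases, 3 were higher and 1 lower at an unadjusted p under 0.05 (19% against 8.97%), with a median of 0.002. Mapk3, which encodes ERK1, had a log2 fold change of -0.12 and overlapping groups. Akt1 had -0.12. Of 26 immediate early and ERK-responsive genes, 5 were higher and 1 lower at an unadjusted p under 0.05 (23.1%), and the median was 0.13. These included the AP-1 genes Fosl2 (log2 fold change 0.41) and Jund (-0.28). Of 16 neurotrophic factors and receptors, 1 had an unadjusted p under 0.05 and was lower. Bdnf lay at 13.3, 12.9 and 17.9 CPM in the control mice and 19.9, 17.4 and 17.2 CPM in the irisin alone mice (log2 fold change 0.30, edgeR adjusted p = 0.63).

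Genes of the mitochondrial genome leaned one way, though none passed the adjusted threshold. All 13 protein genes had negative log2 fold changes, from -0.29 to -0.01 with a median of -0.16, beside a median of -0.0023 over all tested genes. Of the 13, 6 were lower at an unadjusted p under 0.05 (46.2% against 4.44% of tested genes lower). The 13 transcripts are cut from shared precursors and are not independent of each other. mt-Cytb, of complex III, lay at 9158 to 10451 CPM in the control mice and at 7904 to 8542 CPM in the irisin alone mice (log2 fold change -0.27 ± 0.06, edgeR adjusted p = 0.21). mt-Nd4, of complex I, had a log2 fold change of -0.29 ± 0.07 (edgeR adjusted p = 0.30). In both genes the control mice were above all 9 other mice. The share of counts from mitochondrial genes was 8.48 to 9.50% in the control mice, 8.04 to 8.71% in the irisin alone mice and 7.65 to 8.68% in the other 6.

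Nuclear genes of mitochondria moved little. Of 36 nuclear complex I subunits, 4 were lower and 1 higher at an unadjusted p under 0.05 (13.9%), and the median was -0.09. Of 18 genes of mitochondrial biogenesis, 2 were higher (11.1%), namely Tomm20, an import receptor (log2 fold change 0.13), and Ppargc1b, a coactivator (0.45). Ppargc1a, the coactivator PGC-1α, lay at 54.4 to 59.0 CPM in the control mice and at 51.1 to 56.6 CPM in the irisin alone mice (log2 fold change -0.07, edgeR adjusted p = 0.81). Tfam, which packages mitochondrial DNA, had a log2 fold change of 0.003. Of 12 genes of mitochondrial fusion and fission, 2 were higher and 2 lower (33.3%). Mfn2, a mitofusin of the outer membrane, lay at 216, 207 and 210 CPM in the control mice and at 230, 243 and 259 CPM in the irisin alone mice (log2 fold change 0.21 ± 0.05, edgeR adjusted p = 0.30). The MPTP and MPTP then irisin mice lay at 234 to 248 CPM, so the control mice were again below all 9 others. The lower members were Mtfr1, a fission regulator gene, and Mief1, which encodes a receptor of the fission GTPase, with log2 fold changes of -0.41 and -0.22 (unadjusted p = 0.043 and 0.042). Yme1l1, the protease gene of the inner membrane, was the other higher member (0.20, unadjusted p = 0.045). Opa1, which fuses the inner membrane, had 0.11, and Dnm1l, which encodes the fission GTPase DRP1, had 0.03.

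Of 15 tested genes of Bcl2-dependent apoptosis, 3 were higher and 1 lower at an unadjusted p under 0.05 (26.7%), with a median of -0.03. Bcl2, which protects from apoptosis, lay at 21, 27.6 and 23.3 CPM in the control mice and at 32.2, 28.3 and 29.3 CPM in the irisin alone mice (log2 fold change 0.32 ± 0.10, edgeR adjusted p = 0.45). Bax, which promotes it, had a log2 fold change of -0.14, with overlapping groups. Pmaip1, which encodes NOXA and promotes apoptosis, had 0.59. Of 17 antioxidant and DNA repair genes, 3 were lower at an unadjusted p under 0.05 (17.6%), and the median was -0.05. Prdx3, the peroxiredoxin of mitochondria, lay at 93.5, 83.6 and 80.8 CPM against 67.1, 70 and 75.3 CPM (log2 fold change -0.28, edgeR adjusted p = 0.41). Ogg1, which removes oxidised guanine from DNA, had -0.05.

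Of 11 tested thermogenic genes of fat, 1 was higher and 2 were lower at an unadjusted p under 0.05 (27.3%), and the median was -0.40. Dio2, which activates thyroid hormone, lay at 42.2, 54.3 and 52.7 CPM against 64.1, 60.1 and 64.1 CPM (log2 fold change 0.34, edgeR adjusted p = 0.41). Cidea, a lipid droplet protein gene, had -0.46, and Ucp1 did not pass the filter. Of 15 heat shock and endoplasmic reticulum chaperones, 2 were higher (13.3%). Hspa1b, an inducible HSP70 gene, lay at 9.48, 12.6 and 16.1 CPM in the control mice and at 27.5, 18.3 and 28.6 CPM in the irisin alone mice (log2 fold change 0.96 ± 0.23, edgeR adjusted p = 0.30). Of 17 circadian clock genes, 3 were higher (17.6%), among them Per3 (0.46) and Per2 (0.34), which repress the clock. The time of day at which tissue was taken is not in the labels. Of 15 glucocorticoid-responsive genes 1 was higher, Zbtb16 (0.29), and of the 11 tested inflammation and interferon genes and the 18 extracellular matrix genes none had an unadjusted p under 0.05.

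**Figure D5:**
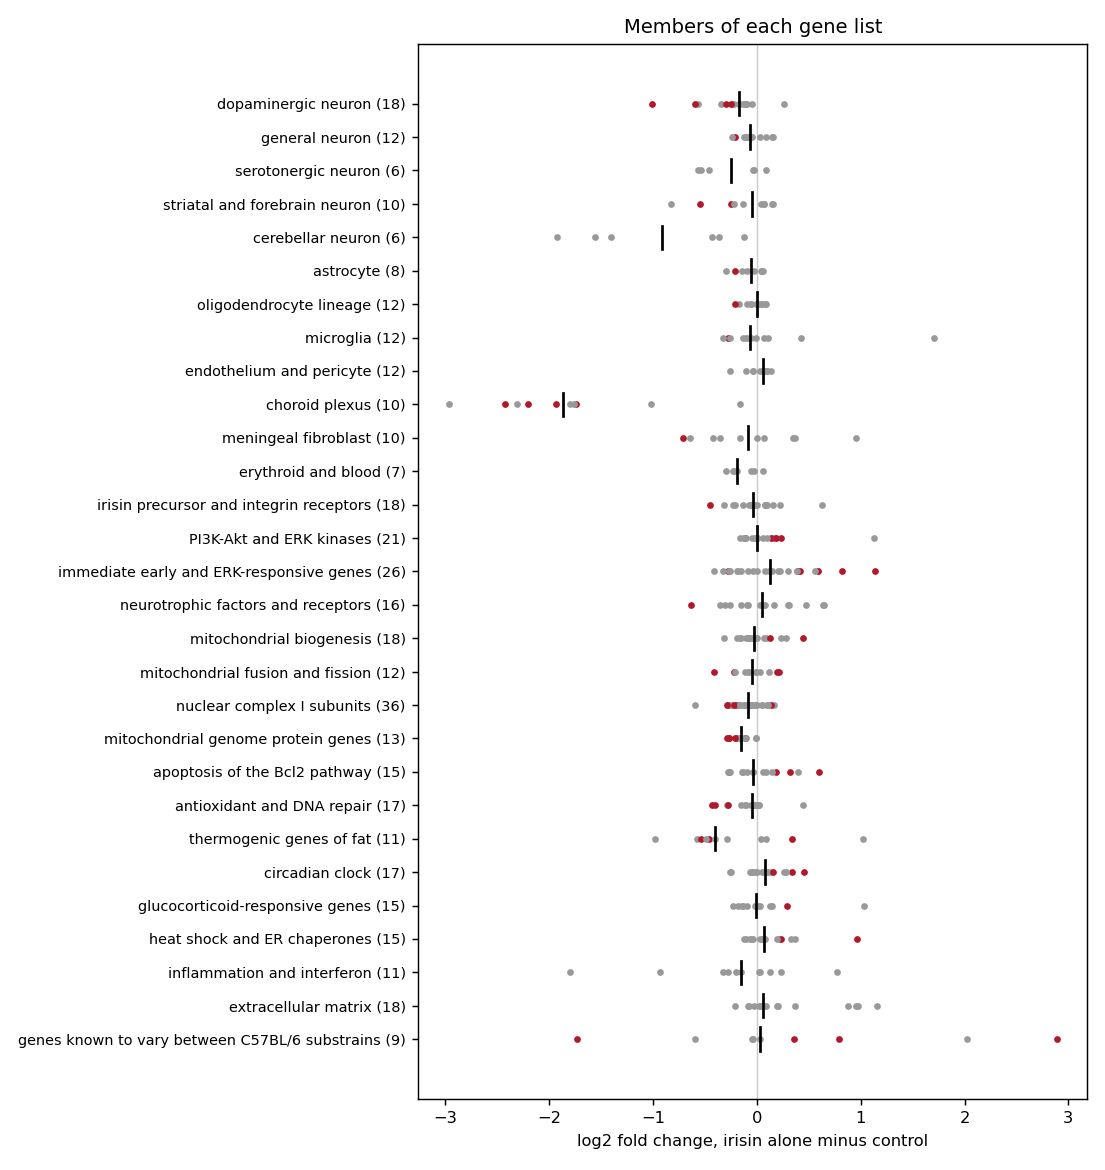
Points are the tested members of each of 29 gene lists (number tested in brackets), placed by the log2 fold change of irisin alone minus control; red marks an unadjusted p under 0.05 and the black bar the list's median. The list medians lie between -0.40 and 0.13 except for the cerebellar neuron list (-0.92) and the choroid plexus list (-1.87), and the outlying red points of the last list are Wdfy1 and Crb1.

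Dopaminergic neuron markers mostly had small negative fold changes, with none past the adjusted threshold. Of 18 markers, 17 had negative log2 fold changes and 4 were lower at an unadjusted p under 0.05 (22.2%), with a median of -0.17. Their summed level was 1065 to 1140 CPM in the control mice, 910 to 998 CPM in the irisin alone mice and 753 to 923 CPM in the other 6. Ret, the receptor of GDNF, lay at 123, 118 and 131 CPM against 90.3, 112 and 100.3 CPM (log2 fold change -0.30, edgeR adjusted p = 0.45). Dlk1, a membrane protein gene, lay at 139, 125 and 139 CPM against 120, 45.4 and 34.8 CPM (log2 fold change -1.01, edgeR adjusted p = 0.53), and without irisin alone replicate 1 its log2 fold change was -1.74. For Th the log2 fold change was -0.12, with a 95% interval of -0.44 to 0.19. In bulk tissue, fewer cells of a type and less RNA per cell cannot be told apart.

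The other marker lists show what the dissections held. The choroid plexus is the tissue that makes cerebrospinal fluid, and its 10 markers had the lowest list median, -1.87, with 4 lower at an unadjusted p under 0.05 (40%). Ttr, its transthyretin gene, lay at 1414, 1265 and 211 CPM in the control mice and at 45.5, 54.8 and 269 CPM in the irisin alone mice, so the groups overlapped in Ttr. In 5 of the 10 markers, Prlr and Slc4a5 among them, the irisin alone mice lay below all control mice, and in 0 above. Of all tested genes, 7.68% were lower without overlap. The summed level of the list ran from 266 to 1540 CPM in control mice, from 80.8 to 310.1 CPM in irisin alone mice and from 49.2 to 1716 CPM in the other 6, a spread between mice of every group. Of the 6 cerebellar and 6 serotonergic neuron markers and the 7 erythroid and blood genes none had an unadjusted p under 0.05, with medians of -0.92, -0.25 and -0.19. The summed cerebellar level was 81.7 to 230.4 CPM in control mice and 88.4 to 124.8 CPM in irisin alone mice. The part of dissection in any result here was not tested.

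Glia, vessels and general neurons were close between the groups. Of 8 astrocyte markers 1 was lower at an unadjusted p under 0.05, Aqp4, the water channel (log2 fold change -0.21), and Gfap had -0.30 (edgeR adjusted p = 0.57). Of 12 markers of the oligodendrocyte lineage 1 was lower, Olig2 (-0.21), and of 12 microglia markers 1 was lower, the complement gene C1qb (-0.27). Cx3cr1, the fractalkine receptor of microglia, lay at 3.85 to 5.30 CPM in the control mice and at 35 CPM in 1 irisin alone mouse, with the other two at 3.80 and 4.07 CPM. It was also high in MPTP replicate 3, at 33.9 CPM, and in MPTP then irisin replicate 1, at 32.1 CPM. The remaining mice of those groups lay at 3.32 to 6.19 CPM, so high levels occurred in single mice with and without irisin. Of 12 general neuron markers 1 was lower, Tubb3 (-0.21), of 10 striatal and forebrain markers 2 were lower, Penk and Ppp1r1b (-0.25 and -0.55), and of 10 meningeal fibroblast markers 1 was lower, Slc6a13 (-0.72). None of the 12 endothelium and pericyte markers had an unadjusted p under 0.05.

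A further set of 31 genes was drawn up around the proteins and signalling that the study examined. It is not an exact list of the proteins measured, since it holds Fis1 and the integrin chain genes Itgav and Itgb5, lacks Mfn1 (log2 fold change -0.08) and takes Nfe2l2 for NRF-2. Of these 31 genes none passed the adjusted threshold (edgeR, smallest adjusted p = 0.30), and 7 had an unadjusted p under 0.05, 4 higher and 3 lower. Their log2 fold changes ran from -0.31 for Cox4i1 to 0.63 for Itgav. In 30 of the 31 the 95% interval lay within a 2-fold change, and in 26 within 1.5-fold.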

How the data were processed

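Midbrain RNA of 21 mice was sequenced on an Illumina instrument. The deposited tables hold raw read counts per gene, which the authors obtained with featureCounts per their methods, and FPKM values that the authors computed beside them. The submitters' processing notes name HISAT, StringTie, edgeR and the build mm9. The coordinates are those of GRCm38, since 94.3% of the 55144 genes found in GENCODE M21 had the same start and end. Strand settings are not given in the sources used here, so overlapping and antisense genes cannot be told apart.

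The 12 mice of the experiment were fitted together with 1 mean per group, by edgeR 4.0.16 in R 4.3.3 (filterByExpr with a minimum count of 10 and total of 15, TMM, quasi-likelihood F test, Benjamini-Hochberg over 21922 genes). Named genes were every gene with an adjusted p under 0.05 (at most 24), the 2 members of each list with the smallest p, genes around the proteins the study examined, the whole substrain and mitochondrial genome lists, and genes whose effect differed with MPTP; others were named after their values were seen. The 29 lists and the comparison were chosen with earlier results of these data known. On simulated counts with 200 genes changed 2-fold, edgeR recovered 38% with 5% false calls, and DESeq2 52.5% with 31.8% false calls. Same-numbered control and irisin alone mice were not paired: their deviations correlated at -0.04, 0.04 and -0.07. Within-group pairs differed by a chi-square of 41.5 to 51.0 per gene. Alternatives used other filters, scalings, DESeq2 1.42.0, limma 3.58.1 on log2(FPKM + 1) or log2(FPKM + 0.1), 2 groups only, a replicate block and each mouse left out. Some list members are not reported here by name.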

Additional observations from a re-analysis of the deposited data

Results flagged for a closer look

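In 9 genes the effect of irisin differed between mice with and without MPTP by the test of the difference itself (edgeR, adjusted p under 0.05). The differences, with MPTP minus without on the log2 scale, were -4.35 for Gm15446, 1.72 for Wdfy1, 1.09 for Larp1, -10.10 for Gm10591, -8.71 for Gm10599, -2.82 for Crb1, -6.74 for Gm17081, -5.44 for Gm13301 (ENSMUSG00000096862) and 1.81 for Gm20632. The adjusted p-values ran from 0.00031 to 0.029. In 7 of the 9 the control mice lay outside all other mice of the experiment, in Gm20632 the irisin alone mice did, and in Larp1 the MPTP mice did. Groups of 3 mice are too small for a test of single outlying mice.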

How the results depend on the processing

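Against 24 genes by the reported fit, irisin alone against control gave 14 when the 2 compared groups were fitted alone (7 of them shared), 14 with a replicate block, 144 by DESeq2 without a filter, 158 by DESeq2 with it and 384 at an unadjusted p under 0.05 with a 2-fold change. Other filters, median ratio scaling and limma gave 19 to 24. With each mouse left out the count was 15 to 28, and 12 of the 24 genes kept their call each time. Against 9 genes, the difference of the effects gave 62 and 64 by DESeq2 without and with the filter, 3 by limma on log2(FPKM + 1), 463 at an unadjusted p under 0.05 with a 2-fold change, 7 with a replicate block and 7 to 19 with each mouse left out. It gave 19 without irisin alone replicate 1. Where the calls differ, the cause was not tested. In no alternative did any of the 24 genes change sign. 6 kept their call in every alternative that gave a value, namely Wdfy1, Gm15446, Gm10591, Crb1, Gm20632 and Lpcat1. Of the other named genes, Mfn2, Dnajb1, Hspa1b and Entpd4 passed by DESeq2, Klf9 passed without control replicate 2, and Dlk1, Prlr and Slc4a5 passed at an unadjusted p under 0.05 with a 2-fold change. 10 of the 24 genes lost their call under the block. The replicate number is only a name: 1 of the 3 control mice correlated best with the irisin alone mouse of its own number. At this depth and group size the fit found 38% of 2-fold changes simulated for this comparison, so a gene that missed the threshold is not shown to be unchanged.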
